A study of Mus musculus with 17 samples.

Results

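The SR, hnRNP and SF3 genes form a module of 40 splicing factor genes out of 20621 genes counted. They were chosen by symbol alone: Srsf followed by a number, any symbol that begins with Hnrnp, and Sf3a or Sf3b followed by a number, with at least 10 counts summed over the 17 libraries. The choice gave 11 SR genes, 20 hnRNP genes and 9 SF3 genes, and no gene with such a symbol failed the minimum. All 40 also passed the filter on low counts that set the 15365 genes tested.

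The RNA came from E14 cells, an established line of mouse embryonic stem cells, either wild type (WT) or RNAPII-mut. The mutant genotype is labelled slow/slow, and the title of the series describes its RNA polymerase II as slow in elongation. Cells of both genotypes grew without feeder fibroblasts on gelatine in DMEM with 10% fetal bovine serum and 1000 U/mL LIF. The 2i treatment added 1 µM PD0325901, an inhibitor of the kinase MEK, and 3 µM CHIR99021, an inhibitor of the kinase GSK3, to that medium for 1, 2 or 7 days, and day 0 is serum and LIF alone. Each of the 8 combinations of genotype and day had 2 libraries, apart from the mutant at day 1 with 3. The labels do not say how many clones the mutant line comes from, so effects of the mutation and of the clone or line cannot be told apart. They also do not say that replicates are separate cultures, so the p-values measure the spread between these libraries, which may be technical.

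SR proteins carry an RNA recognition motif and a domain rich in arginine and serine repeats, bind enhancer sequences in exons and recruit the splicing machinery. The hnRNPs coat nascent pre-mRNA, and several of them bind silencer sequences and oppose SR proteins at the same exons. SF3A and SF3B are protein complexes of the U2 snRNP, the particle that recognises the branch point of the intron, and the speed of RNA polymerase II is known to influence which splice sites are used.

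Sequencing depth was even, from 47350441 to 56138844 counts a library, of which the 40 genes took 1.39 to 1.98%. The pluripotency markers fitted the labelled cell type, with a summed level of 5364 to 11160 CPM, each library's counts brought to a common total in every library. A pair of WT libraries, replicate 1 of day 0 and of day 1, stood apart with summed mesoderm and stromal markers at 722 and 1086 CPM, against 16.6 to 173 CPM in the other 15 libraries. The WT libraries numbered 2 had summed primitive endoderm markers of 1084 to 1365 CPM, against 255 to 760 CPM in all others. RNA from whole cultures was measured, so fewer cells of a type and less RNA per cell cannot be told apart.

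The members differed widely in level. Per kilobase of the longest principal transcript in the annotation, Hnrnpa2b1, which encodes a protein of RNA transport and splicing, stood highest at 815 ± 169 CPM (SD, n = 17). Hnrnpab followed at 627 ± 87.8 CPM per kb, and Srsf2 led the SR genes at 350 ± 40.6 CPM per kb (SD, n = 17 for each). The ranges of Hnrnpa2b1 and Hnrnpab over the libraries, 535 to 1214 and 460 to 745 CPM per kb, overlapped. The order depends on the length used, since over the union of all annotated exons Hnrnpab came to 534 and Hnrnpa2b1 to 206 CPM per kb. Among the SF3 genes the levels ran from 29.1 CPM per kb for Sf3b5 to 172 CPM per kb for Sf3b2. Srsf12, an SR gene whose protein can act against other SR proteins, was nearly silent at 0.869 ± 0.343 CPM per kb (SD, n = 17), and the next lowest member, Hnrnpr, stood at 7.91 CPM per kb on an annotated transcript of 21452 bases.

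Most members varied by less than 2-fold over the 17 libraries, and in 9 of the 40 the highest library was over 2-fold the lowest. Of the 40 members, 39 had a mean of at least 50 CPM, and their median coefficient of variation over the 17 libraries was 14%. It was 19.99% for all 4488 genes above the same minimum, members included, which were not matched to the members in level. Hnrnpd, whose protein binds AU-rich elements in mRNA, varied least, between 526 and 658 CPM with a coefficient of variation of 5.99%. Srsf12 varied most, at 39.5%, followed by Hnrnpll at 27.5%. Hnrnpll encodes the paralog of hnRNP L that is known for splicing of the CD45 gene in lymphocytes, and its level ran from 56.01 to 150.3 CPM.

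The promoters of the members were described by their CpG content and by short motifs, with no test. RefSeq promoter windows on GRCm38.p6, 250 bases before to 50 bases after the start, were found for 36 of the 40 members. They held 7 to 52 CpG dinucleotides with a median of 27.5, against 20 in the windows of 11726 genes tested and 7 in all 32851 windows. The GC box GGGCGG was present on either strand in 75.0% of member windows, 62.1% of those of genes tested and 35.7% of all windows. For the ETS core CGGAAG the shares were 47.2, 28.3 and 16.9%, for CCAAT 50.0, 38.5 and 37.4%, and for TATAAA 13.9, 7.62 and 13.6%, again on either strand. These are counts of letters in a window and no record of binding.

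Promoters are printed for 3 genes on which the comparisons turn: Srsf4, called between the genotypes, and Srsf1 and Hnrnpa2b1, which had large differences over 7 days of 2i in at least 1 genotype. Each is a RefSeq window on GRCm38.p6, 5′ to 3′ on the strand of the gene, and stops before the annotated gene begins; capitals mark the GC box, the ETS core and the CCAAT box on either strand.
Srsf4, chr4:131873387-131873616, plus strand: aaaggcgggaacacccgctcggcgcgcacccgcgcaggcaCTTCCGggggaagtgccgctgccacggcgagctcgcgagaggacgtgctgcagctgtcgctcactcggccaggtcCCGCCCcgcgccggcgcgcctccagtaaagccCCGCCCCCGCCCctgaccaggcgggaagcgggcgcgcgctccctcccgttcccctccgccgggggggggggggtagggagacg
Srsf1, chr11:88047123-88047372, plus strand: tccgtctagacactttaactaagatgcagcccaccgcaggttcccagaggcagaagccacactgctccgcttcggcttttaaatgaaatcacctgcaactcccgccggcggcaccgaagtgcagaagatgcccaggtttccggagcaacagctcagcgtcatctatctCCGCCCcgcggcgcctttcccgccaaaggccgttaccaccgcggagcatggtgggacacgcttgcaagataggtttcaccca
Hnrnpa2b1, chr6:51469895-51470144, minus strand: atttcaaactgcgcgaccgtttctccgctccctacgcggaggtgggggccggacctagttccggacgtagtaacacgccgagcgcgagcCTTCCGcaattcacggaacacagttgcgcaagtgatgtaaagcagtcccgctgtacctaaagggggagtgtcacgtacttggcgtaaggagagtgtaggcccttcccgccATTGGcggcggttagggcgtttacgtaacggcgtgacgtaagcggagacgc
The Srsf4 stretch of 230 bases holds 33 CpG, 3 GC boxes and 1 ETS core. The Srsf1 stretch of 250 bases holds 19 CpG and 1 GC box, and that of Hnrnpa2b1, also 250 bases, 29 CpG, 1 ETS core and 1 CCAAT box.

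Summed over each family, the levels of the genotypes lay close together at days 0 and 7. The 11 SR genes summed to 3683 ± 214 CPM in WT and 3407 ± 408 CPM in the mutant at day 0, and to 3145 ± 378 and 3396 ± 344 CPM at day 7 (SD, n = 2 for each). The 20 hnRNP genes summed to 11390 ± 716 CPM in WT and 10930 ± 1249 CPM in the mutant at day 0, and to 9394 ± 989 and 10040 ± 861 CPM at day 7 (SD, n = 2 for each). The 9 SF3 genes summed to 2715 ± 38.7 and 2930 ± 313 CPM at day 0, and to 2532 ± 151 and 2707 ± 40.6 CPM at day 7, WT first (SD, n = 2 for each). Libraries of the genotypes overlapped in each of these sums except that of SF3 at day 7, where the mutant libraries (2678 and 2736 CPM) lay above those of WT (2426 and 2639 CPM). Over all 40 members the lowest library was WT day 7 replicate 2 at 14000 CPM and the highest mutant day 1 replicate 3 at 20330 CPM.

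**Figure D1:**
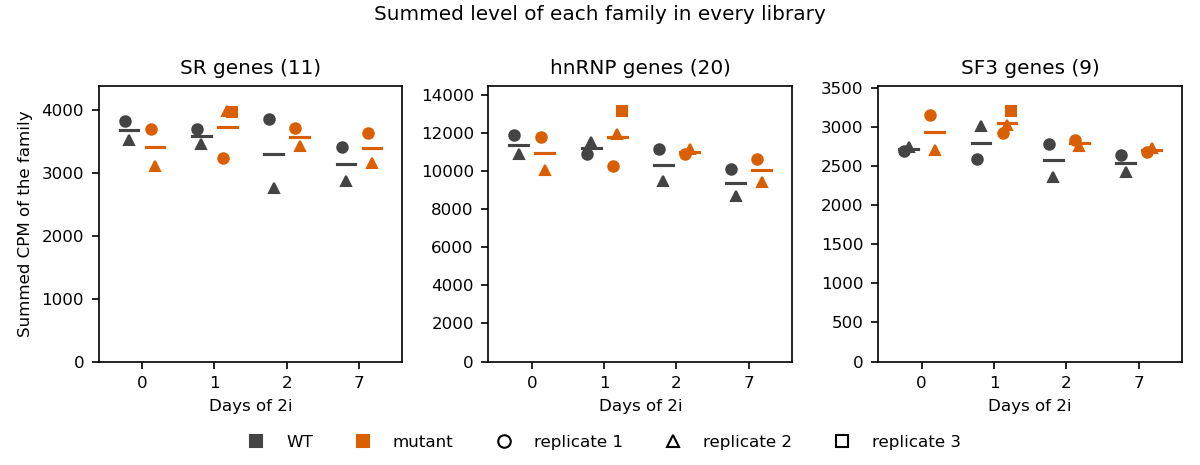
Summed CPM of the 11 SR, 20 hnRNP and 9 SF3 genes (vertical axes) in each library by days of 2i (horizontal axes). Points are libraries, shaped by replicate number and coloured by genotype, and bars are group means; SR sums lay between 2760 and 3986 CPM, hnRNP sums between 8694 and 13160 CPM and SF3 sums between 2359 and 3203 CPM.

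The main question for this module is whether cells with the slow polymerase make different amounts of splicing factor RNA. On average over the 4 days, 1 of the 40 members passed the test, Srsf4, which was higher in the mutant, while 12.8% of all genes tested passed it (edgeR quasi-likelihood test, Benjamini-Hochberg adjusted p under 0.05). The median log2 difference over the members was 0.042, beside -0.03 over all genes tested. A positive difference was found in 29 of the 40 members (72.5%), beside 46% of all genes. At an unadjusted p under 0.05 there were 3 members (7.5%, beside 27.8% of all genes), all higher in the mutant: Srsf4, Sf3b3 and Hnrnpa3. The 95% intervals of this fit stayed within 1.5-fold in either direction for 39 of the 40 members and within 2-fold for all 40. The exception at 1.5-fold was Srsf12, the member with the fewest counts. The fit takes libraries as independent, but WT libraries numbered 1 deviated together over the days (r from 0.26 to 0.764 over all genes). The intervals of this average may therefore be too narrow.

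**Figure D2:**
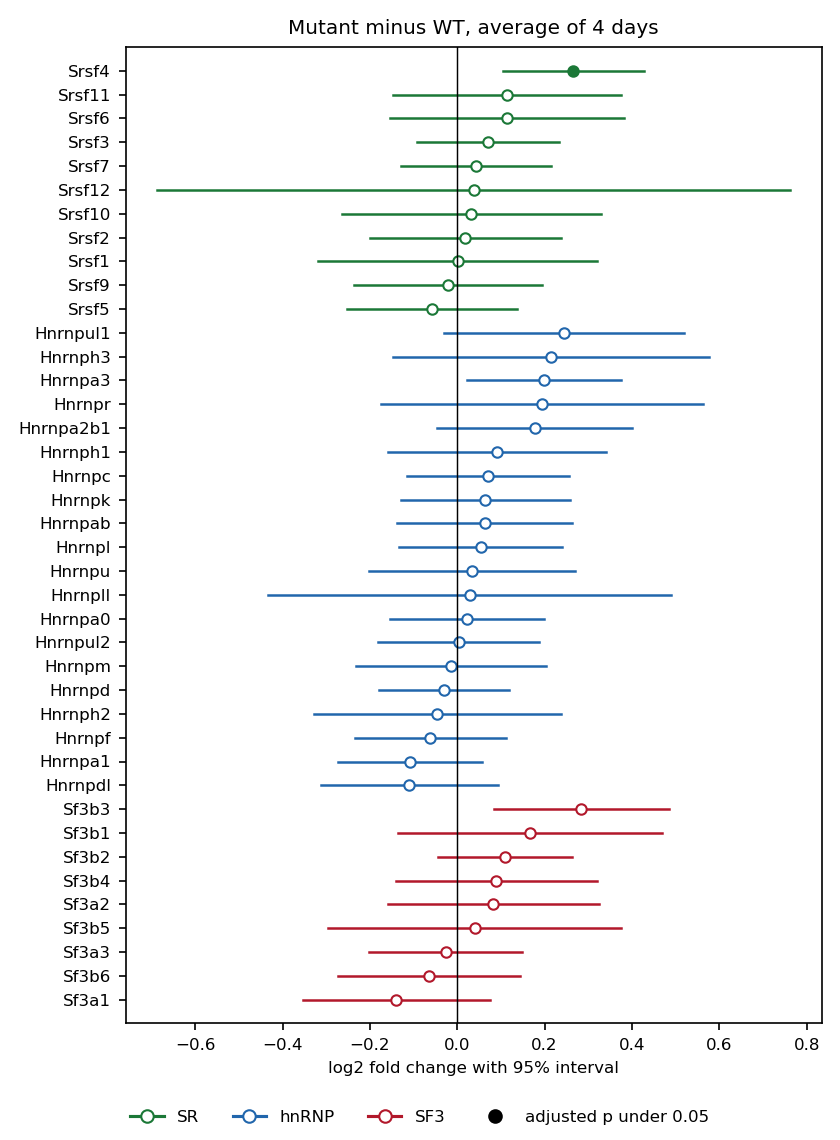
Log2 difference of mutant minus WT on average over 4 days for each of the 40 members, with its 95% interval (horizontal axis), grouped by family. The filled point is Srsf4 at 0.27, the member with an adjusted p under 0.05, and the interval of every other member but Sf3b3 and Hnrnpa3 includes 0.

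Srsf4 encodes a large SR protein and lies on chromosome 4 (GRCm38, 131873617 to 131901706, plus strand). In WT its level was 123 and 114 CPM at day 0, 118 and 145 at day 1, 144 and 128 at day 2, and 125 and 137 at day 7. In the mutant it was 159 and 157 CPM at day 0, 150, 148 and 172 at day 1, 167 and 167 at day 2, and 133 and 147 at day 7. Every mutant library was above every WT library of the same day at days 0, 1 and 2, and the genotypes overlapped at day 7. The average difference was 1.203-fold (log2 0.27, SE 0.0748, 95% interval 0.10 to 0.43, adjusted p = 0.0349). The call is a marginal one: it was lost in 14 of 17 fits that left out 1 library, with adjusted p between 0.00425 and 0.0888 and log2 between 0.23 and 0.31 over all alternatives, and DESeq2 kept it. With the replicate number as a block it was lost too (adjusted p = 0.0548). Without the WT pair that stood apart the difference was 0.25 on the log2 scale with an adjusted p of 0.0746.

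Markers of other cell types were also called in the mutant on average, all downwards, beside 12.8% of all genes called in either direction. They were 4 of 11 mesoderm and stromal markers (36.4%), 6 of 10 primitive endoderm markers (60.0%) and 3 of 7 trophoblast markers (42.9%). For mesoderm and stroma the summed level was 35.7 to 1086 CPM over the WT libraries and 16.6 to 72.6 CPM over the mutant libraries. For primitive endoderm it was 499 to 1365 CPM over WT and 255 to 665 CPM over mutant libraries, and for trophoblast 99.1 to 1373 CPM over WT and 74.7 to 164 CPM over mutant libraries. Postn was at 0 in every mutant library, and Lum was at 0 in all but 1 library of each genotype. The part of these cells in the difference of Srsf4 was not tested beyond the fit without the WT pair.

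None of the other SR genes passed the test between genotypes on average. Srsf1, the prototype of the family, had a log2 difference of 0.00 (95% interval -0.32 to 0.32), the closest to 0 of the 40. The smallest SR value was that of Srsf5 at -0.06 (-0.25 to 0.14). Srsf2 (0.02), Srsf10 (0.03), Srsf12 (0.04), Srsf7 (0.04) and Srsf3 (0.07) also lay near 0, with adjusted p between 0.599 and 0.964. Of these, Srsf3 and Srsf7 encode SR proteins that also act in mRNA export, and Srsf10 encodes one that represses splicing when dephosphorylated. Srsf12 had the widest interval, -0.69 to 0.76, at a level of 0.785 to 4.55 CPM.

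Among the 20 hnRNP genes the average difference ran from -0.11 for Hnrnpdl (95% interval -0.31 to 0.09) to 0.24 for Hnrnpul1 (-0.03 to 0.52), and none passed the test. Hnrnpul1 encodes a relative of hnRNP U, and Hnrnpdl a relative of hnRNP D. Hnrnpa3, a relative of Hnrnpa1, was at 63.7 and 54.1 CPM in WT at day 0, 74.8 and 61.2 at day 1, 68.6 and 63.4 at day 2, and 66.0 and 65.7 at day 7. In the mutant it was at 67.3 and 71.2 CPM at day 0, 87.4, 88.5 and 81.5 at day 1, 73.8 and 75.5 at day 2, and 76.2 and 59.9 at day 7. As with Srsf4, mutant libraries were above WT libraries at days 0, 1 and 2 and overlapped them at day 7. The average difference of Hnrnpa3 was 0.20 (0.02 to 0.38), but its adjusted p was 0.133. The abundant Hnrnpa2b1 was at 0.18 (adjusted p = 0.295). Hnrnpa1, whose protein binds splicing silencers, was at -0.11 (adjusted p = 0.402). Hnrnpa1 lies on chromosome 15, where the median of 613 genes was -0.26 for the same difference, and its own value lies above that median.

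The remaining hnRNP genes fixed for reporting were nearer to 0. Hnrnph1 and Hnrnpf, whose proteins bind runs of G, were at 0.09 and -0.06. Hnrnpk, which encodes a binder of C-rich sequence, was at 0.06, and Hnrnpc, which encodes a binder of uridine tracts, at 0.07. Hnrnpl, which encodes a binder of CA repeats, was at 0.05, its paralog Hnrnpll at 0.03, Hnrnpu, which encodes a nuclear scaffold protein, at 0.03, and Hnrnpd at -0.03. Their adjusted p-values lay between 0.657 and 0.956.

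The SF3 genes, which encode the branch-point recognition complexes, gave no call on average. Sf3b3, which encodes a scaffold subunit of SF3B, had the largest difference of the 40 members. Its level in WT was 654 and 787 CPM at day 0, 598 and 717 at day 1, 605 and 468 at day 2, and 533 and 489 at day 7. In the mutant it was 884 and 700 CPM at day 0, 669, 763 and 847 at day 1, 738 and 630 at day 2, and 684 and 701 at day 7. The genotypes overlapped at days 0 and 1, and every mutant library was above every WT library at days 2 and 7. The average difference was 1.22-fold (log2 0.28, SE 0.0927, 95% interval 0.08 to 0.48, adjusted p = 0.0625), and DESeq2, a term for the WT replicate numbers and a correction for gene span each called it. Sf3b3 is the only member on chromosome 8, where the median difference of 801 genes was 0.36 and 79.5% were positive, so its value lies below that of its chromosome. A change of this gene and a change of its chromosome cannot be told apart here.

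The other SF3 genes lay on both sides of 0. The lowest was Sf3a1, which encodes the largest SF3A subunit, at -0.14 (95% interval -0.35 to 0.07). It lies on chromosome 11, where the median of 1243 genes was -0.105 for the same difference and 33.6% were positive. Sf3b1, which encodes the subunit that encloses the branch-point helix, was at 0.17 (-0.14 to 0.47). Sf3b4, whose protein contacts the pre-mRNA upstream of the branch point, was at 0.09 (-0.14 to 0.32).

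On single days, no member passed the test between genotypes, at a background of 0.28% of all genes at day 0, 0.417% at day 1, 0.0716% at day 2 and 0.0976% at day 7 (edgeR). With such backgrounds a count of 0 out of 40 is near what the share of all genes gives. DESeq2 called 0 members on each day. At an unadjusted p under 0.05 there was 1 member at day 0 (Srsf4), 1 at day 1 (Hnrnpa3), 0 at day 2 and 1 at day 7 (Sf3b3). These are 2.5, 2.5, 0 and 2.5% of the members, beside 13.2, 14.4, 6.04 and 9.53% of all genes. The number of members with a positive difference was 14 (35%) at day 0, 26 (65%) at day 1, 31 (77.5%) at day 2 and 26 (65%) at day 7. Over all genes the shares were 45.9, 45.6, 48.3 and 46.9%. The median log2 difference over members was -0.04, 0.058, 0.091 and 0.052 in the same order, beside -0.05, -0.046, -0.012 and -0.026 over all genes. The values at days 0 and 1 change without the WT pair that stood apart, which leaves 1 WT library on each of these days. At day 0, 22 members were then positive, with a median of 0.016 beside -0.003 over all genes. At day 1, 23 were positive, with a median of 0.039 beside 0.008 over all genes. No member differed by over 1.5-fold on any day, and the largest value was 1.37-fold lower for Sf3a2 in the mutant at day 7. The 95% intervals stayed within 2-fold for 36, 39, 36 and 36 members at days 0, 1, 2 and 7. By family, the shares positive among SR, hnRNP and SF3 genes were 27.3, 25 and 66.7% at day 0. They were 54.5, 60 and 88.9% at day 1, and 90.9, 70 and 77.8% at day 2. At day 7 they were 81.8, 75 and 22.2%, with 7 of 9 SF3 genes negative. The exceptions among the SF3 genes at day 7 were Sf3b3 (log2 0.44) and Sf3b1 (0.36), which are among the more abundant of the 9, so the family's summed level was higher in the mutant while its median gene was lower (log2 -0.083).

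At day 7 the difference between genotypes moved with gene span over the 40 members. Pearson's r between log2 difference and log span was 0.46 (Spearman's rho 0.44), beside 0.03 over 14992 genes with a span. All points come from the same 4 libraries, so this is a description. At days 0, 1 and 2 the same r was 0.06, 0.025 and 0.17, and on average over days it was 0.33, beside -0.09 over all genes with a span. The day 7 value is singled out here as the largest of the 14 comparisons.

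The response to 2i gave few member calls. In WT, 0 of 40 members passed the test after 1, 2 or 7 days against day 0, beside 0.202, 2.16 and 12.7% of all genes (edgeR). DESeq2 called 0, 0 and 2 members, the latter Hnrnpa1 and Sf3b3, both lower at day 7, where it called 21.1% of all genes. At an unadjusted p under 0.05 there were 0, 1 and 6 members (0, 2.5 and 15%, beside 8.42, 17.1 and 29.4% of all genes). All 6 at day 7 were lower than at day 0. The median over members at day 7 was -0.148 on the log2 scale, beside -0.005 over all genes. Of the 40 members 28 were lower and 12 (30%) higher, beside 49.7% of all genes higher. Mesoderm and stromal markers moved in the same comparison, from 722 and 35.7 CPM summed at day 0 to 71.3 and 42.5 at day 7, with 10 of 11 lower. Without the WT pair that stood apart, which leaves 1 WT library at day 0, 30 of 40 members were lower, with a median of -0.118 beside 0.018 over all genes. In the main fit the hnRNP genes held most of the 28, with 16 of 20 lower and a median of -0.259, beside 7 of 11 SR genes and 5 of 9 SF3 genes.

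The 6 members with an unadjusted p under 0.05 in WT at day 7 were abundant hnRNP, SR and SF3 genes. Srsf1 had the largest difference of the 40, from 657 and 571 CPM at day 0 to 459 and 282 at day 7, or 1.66-fold lower (SE 0.304 on the log2 scale, adjusted p = 0.131). Hnrnph1 went from 595 and 507 to 427 and 288 CPM, or 1.54-fold lower (adjusted p = 0.0996). Hnrnpa1 went from 431 and 439 to 322 and 319 CPM, or 1.36-fold lower (adjusted p = 0.0800). For these genes every day 7 library lay below every day 0 library. Hnrnpa2b1 (1607 and 1321 CPM, then 1128 and 939), Hnrnpab (1753 and 1497, then 1263 and 1089) and Sf3b3 were 1.38- to 1.42-fold lower, with adjusted p between 0.102 and 0.134. Day 7 libraries lay below day 0 libraries in these as well. All 6 were picked by their p-value in this comparison, so the separation adds no support. A term for the WT replicate numbers made 2 calls, Hnrnph1 and Srsf1, beside 26.1% of all genes, and upper quartile normalisation made 1, Hnrnpa1, beside 12.1%.

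In the mutant, too, 0 of 40 members passed the test at days 1, 2 and 7 against day 0, beside 1.41, 2.92 and 14.2% of all genes (edgeR), and DESeq2 called 0 on each day. At an unadjusted p under 0.05 there were 2, 0 and 6 members (5, 0 and 15%, beside 13.2, 15 and 28.5% of all genes). The 2 at day 1 were Srsf3 and Hnrnpdl, higher than at day 0 by 1.26- and 1.35-fold (adjusted p = 0.323 and 0.3002). At day 7 Hnrnpul2 was higher and 5 members were lower, of which 3 encode SF3 subunits: Sf3a2, Sf3b4 and Sf3b6. Of the 9 SF3 genes 8 were lower at day 7 in the mutant, with a median of -0.194, and Sf3b1 was the exception at 0.37. The share higher was thus 11.1%, beside 63.6% of SR genes, 40% of hnRNP genes and 49.9% of all genes. In WT the median of the 9 was -0.087. The median over members was 0.1 at day 1, 0.037 at day 2 and -0.035 at day 7, beside 0.012, 0.023 and 0 over all genes.

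Hnrnpa2b1 was the member with the lowest fold in the mutant at day 7, from 1696 and 1462 CPM at day 0 to 1256 and 889 CPM, or 1.47-fold lower (SE 0.211 on the log2 scale, adjusted p = 0.0974). Sf3a2 went from 235 and 184 to 130 and 156 CPM, 1.46-fold lower (adjusted p = 0.132). Sf3b4 went from 218 and 157 to 116 and 143 CPM, 1.45-fold lower (adjusted p = 0.122). In all 3 genes the day 7 libraries lay below those of day 0. All 3 had an unadjusted p under 0.05 in this comparison, so the separation adds no support. Srsf1 was at 524 and 401 CPM, then 540 and 396 CPM, with a log2 difference of 0.02. The count for the mutant at day 7 depends on the fit: with the spread taken from the mutant day 0 and day 7 libraries alone, 8 of 40 members were called, but so were 38.8% of all genes. The 8 were Hnrnph3, Sf3a2, Sf3b6, Sf3b4, Hnrnpa2b1 and Hnrnpl, all lower, and Hnrnpul2 and Srsf12, both higher.

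**Figure D3:**
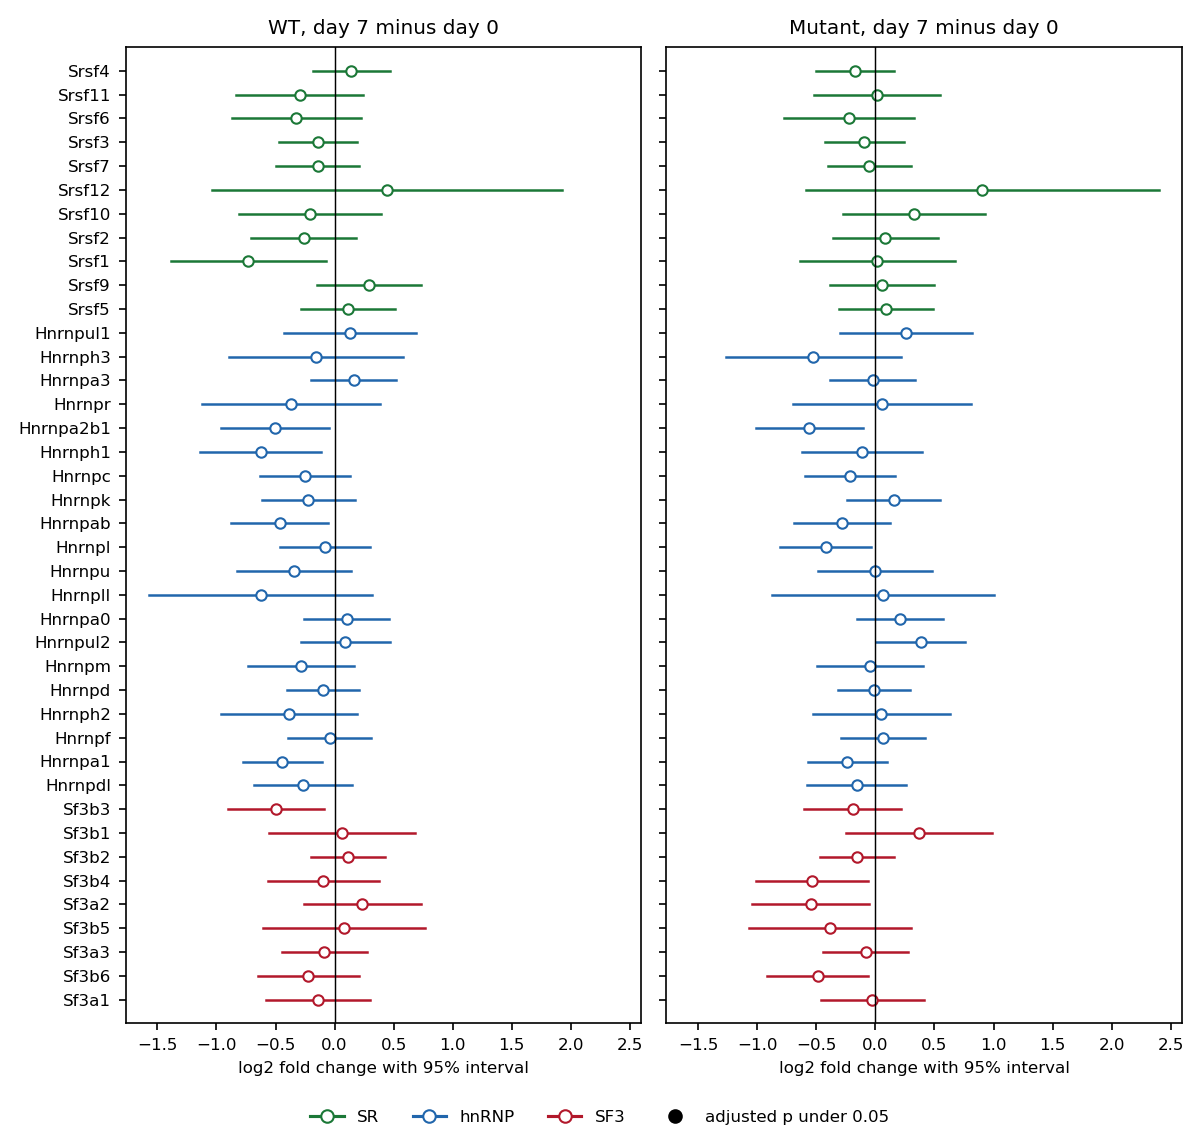
Log2 difference of day 7 minus day 0 with its 95% interval for each of the 40 members in WT (left) and mutant (right), in the order of the average difference between genotypes within each family. No point is filled, since none had an adjusted p under 0.05; the WT interval of Srsf1 lies below 0 and the mutant interval does not.

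**Figure D4:**
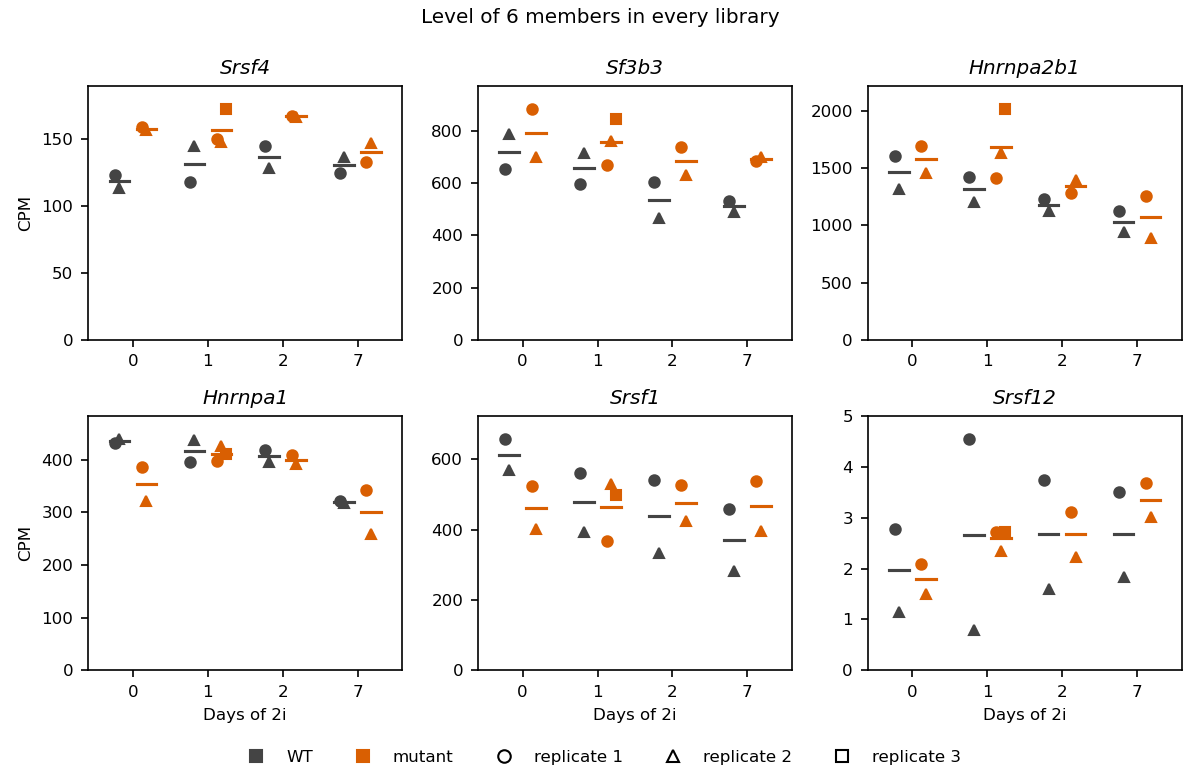
Level in CPM (vertical axes, from 0) of Srsf4, Sf3b3, Hnrnpa2b1, Hnrnpa1, Srsf1 and Srsf12 in each of the 17 libraries by days of 2i. Points are libraries, shaped by replicate number and coloured by genotype, and bars are group means; the mutant points of Srsf4 lie above the WT points at days 0, 1 and 2, and the WT points of Srsf12 separate by replicate number on every day.

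Whether the genotypes answer 2i differently was tested as the difference of their responses. No member and 0% of all genes passed it at day 1, 0% at day 2 and 0% at day 7 (edgeR). At an unadjusted p under 0.05 there were 0, 0 and 1 members (0, 0 and 2.5%, beside 0.768, 2.38 and 7.67% of all genes). DESeq2 called 0 members on each day and 0, 0 and 67 of all genes. The 1 member was Sf3a2, at 158 and 175 CPM in WT day 0, 184 and 207 in WT day 7, 235 and 184 in mutant day 0 and 130 and 156 in mutant day 7. WT libraries were higher at day 7 and mutant libraries lower, a difference of -0.78 on the log2 scale (SE 0.323, adjusted p = 0.638). For Srsf1 the difference of responses was 0.75 (adjusted p = 0.669). These differences are poorly bounded, since at day 7 the 95% interval stayed within 2-fold for 26 of 40 members. Sf3a2 overlaps Plekhj1 on the opposite strand, and reads of such partners cannot be told apart when the strand setting is not stated.

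Members also differed between the WT replicate numbers, in a fit of its own that called a large share of all genes. Over the 4 days, 9 of 40 members differed between WT replicate 1 and replicate 2, beside 32.4% of all genes, and 7 of the 9 were higher in replicate 1 (edgeR). The members' share was 22.5%, under that background here and above it in the other fits given next. Srsf12 had the largest difference, at 2.78, 4.55, 3.76 and 3.51 CPM in replicate 1 and 1.15, 0.785, 1.60 and 1.84 CPM in replicate 2 at days 0, 1, 2 and 7. Every replicate 1 library was above every replicate 2 library, by 2.78-fold on average (SE 0.282 on the log2 scale, adjusted p = 0.00239). Hnrnpll was at 150, 128, 137 and 114 CPM in replicate 1 and at 112, 64.0, 64.3 and 56.01 CPM in replicate 2 on the same days. Hnrnph3, which encodes a relative of hnRNP H, went the other way, at 59.5, 45.3, 51.8 and 46.2 CPM in replicate 1 and 67.3, 93.9, 95.4 and 67.6 CPM in replicate 2. Neither gene overlapped between the replicate numbers. Hnrnpll was 1.85-fold, Hnrnpr 1.59-fold, Srsf1 1.44-fold, Hnrnph1 1.34-fold, Srsf11 1.33-fold and Srsf6 1.32-fold higher in replicate 1. Hnrnph3 and Sf3b5, which encodes a small SF3B subunit, were 1.59- and 1.54-fold lower there. Adjusted p for these 8 lay between 0.00409 and 0.0455.

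The labels do not say what the number stands for, and the comparison was chosen after the data were seen. The fit counts the 4 days of a number as independent replicates. If a number marks 1 series of cultures, they are not independent, and these p-values overstate the evidence. Primitive endoderm markers moved with it, at 499 to 760 CPM summed in WT replicate 1 and 1084 to 1365 in WT replicate 2, and their part was not tested. Without the WT pair that stood apart 7 members (17.5%) were called, beside 14.5% of all genes. With days 2 and 7 alone 7 (17.5%) were called, beside 14.4%. With a correction for the trend on gene span 18 (45.0%) were called, beside 31.7%, and 16 of the 18 were higher in replicate 1. Whether the members differ more or less often than other genes thus changes with the fit. Over the members r between this difference and log span was 0.29, beside 0.20 over all genes with a span.

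**Figure D5:**
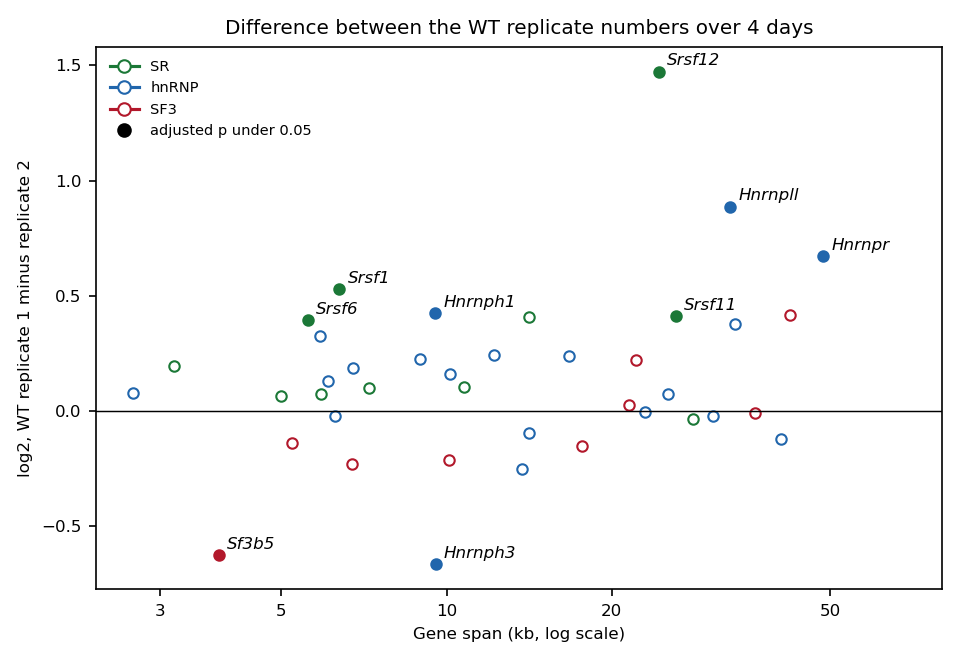
Log2 difference of WT replicate 1 minus WT replicate 2 over 4 days (vertical axis) against gene span in kb (horizontal axis, log scale) for the 40 members, coloured by family. Filled and named points are the 9 with an adjusted p under 0.05, 7 above 0 and 2 below.

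Genes that work with the members were counted in the same way. Over the 14 comparisons edgeR called 0 to 14.2% of all genes, and 0.768 to 29.4% were at an unadjusted p under 0.05. Of the Sm, U1, U2 and U2AF genes outside the module, 0 of 26 passed the test in any of the 14 comparisons (edgeR), 0 to 3 were at an unadjusted p under 0.05, and DESeq2 called 0. Of 24 tested genes for SR-related proteins, SR kinases and SR import, 0 passed in any comparison and 0 to 4 were at an unadjusted p under 0.05. DESeq2 called 1 of them in WT and 2 in the mutant at day 7, beside 3236 and 3314 of all 15365 genes. Of 35 genes of the tri-snRNP, the Prp19 complex and the step helicases, 2 (5.71%, beside 12.8% of all genes) were higher in the mutant on average: Xab2 by 1.33-fold (log2 0.41, adjusted p = 0.0362) and Dhx38 by 1.34-fold (log2 0.42, adjusted p = 0.0172). Both lie on chromosome 8, like Sf3b3, near its median of 0.36. By day 7 in the mutant 1 gene of the same list (2.86%, beside 14.2% of all genes) was called, Isy1, which fell 1.44-fold (adjusted p = 0.0307). Of 14 nonsense-mediated decay genes 1 (7.14%, beside 14.2% of all genes) was called by day 7 in the mutant. It was the helicase gene Upf1, which fell 1.60-fold (adjusted p = 0.0423).

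Among 38 hnRNP genes with other symbols and other splicing regulators, the share edgeR called was near or below that of all genes in the comparisons with calls. On average over days 4 (10.5%, beside 12.8%) were called: Cirbp, a cold-inducible RNA-binding protein gene, was 1.47-fold higher in the mutant (adjusted p = 0.00562) and its relative Rbm3 1.31-fold (adjusted p = 0.0290), while Nova1 was 2.53-fold lower (adjusted p = 0.00111) and Mbnl2 1.58-fold lower (adjusted p = 0.0334). After 7 days of 2i 3 (7.89%, beside 12.7%) were lower in WT: Esrp1, Mbnl3 and Pcbp4. In the mutant 5 (13.2%, beside 14.2%) were called at day 7, with Nova2, Qk and Ptbp3 higher and Esrp1 and Pcbp4 lower. Esrp1, which encodes a splicing regulator of epithelial cells, had the largest difference of the called genes of the list over 7 days in both genotypes. It went from 83.0 and 11.8 CPM at day 0 to 1.96 and 1.72 at day 7 in WT, or 25.7-fold lower (adjusted p = 0.0285). In the mutant it went from 57.1 and 48.4 CPM to 0.628 and 0.3997, or 102-fold lower (adjusted p = 0.00695). Day 7 libraries lay below day 0 libraries in both genotypes, and the high WT library at day 0 is 1 of the pair that stood apart. Pcbp4, which encodes a relative of hnRNP K, was 2.28-fold lower in WT (adjusted p = 0.0261) and 3.49-fold lower in the mutant (adjusted p = 0.00268). At day 2 in the mutant 1 (2.63%, beside 2.92%) was lower, Cirbp by 1.87-fold (adjusted p = 0.0402). DESeq2 called 2, 3, 0 and 1 of the 38 between genotypes at days 0, 1, 2 and 7, beside 4.52, 4.99, 0.872 and 2.04% of all genes. On average over days it called 7, beside 19.7% of all genes. By day 7 of 2i it called 5 in WT and 7 in the mutant, beside 3236 and 3314 of all 15365 genes. Whether this list differs from the module was not tested.

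Counts per gene add up all isoforms, including those with the poison exons that many SR and hnRNP genes carry, so a shift between isoforms does not show here. Reads of Hnrnpa1, Hnrnpa3 and Srsf3 can be split with processed copies elsewhere in the genome, and the treatment of such reads is not stated. Hnrnpab, Hnrnph3, Hnrnpk, Hnrnpu, Sf3a2, Sf3b3 and Srsf2 overlap a counted gene on the opposite strand, and Hnrnpm overlaps 1 on its own strand.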

How the data were processed

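Total RNA of 17 libraries was sequenced by DNBSeq, per the labels. The authors deposited raw read counts per gene; STAR, deepTools and the mm10 genome are named in the submitters' processing notes, without versions. How reads were counted (tool, gene models, strand, reads with several matches) is not given in the sources used here. 0 sample columns were left out, and 2692 of 20621 genes were at 0 in every library.

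Counts were fitted with edgeR 4.0.16 (R 4.3.3): TMM scaling, filterByExpr with a minimum count of 10, 15365 genes, 1 quasi-likelihood fit over all 8 groups, 14 contrasts, two-sided, with Benjamini-Hochberg adjustment over all genes tested and calls under 0.05. The 95% intervals use 9 residual and 3.96 prior degrees of freedom. A group of 2 libraries gives little precision alone, so the spread is pooled over groups. CPM use TMM-scaled totals. The code was tested on simulated counts. Gene spans and positions come from GENCODE M21 (GRCm38, the same assembly as mm10), which placed 97.5% of symbols, and promoters from RefSeq.

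The rule for the members uses only symbols and a minimum of total counts. The rule, the lists and the cell type markers were all chosen with earlier results of these data known. Named with full values were called members (up to 4 each way per comparison), the extremes of each family on average, 21 members fixed by name, and up to 3 called genes per list and comparison; members with an unadjusted p under 0.05, Srsf11, Srsf6, Hnrnpab and other members outside these, further called genes of a list, and the WT replicate comparison, were picked after their values were seen. Alternatives were DESeq2 1.42.0, other scaling, filters, sets of libraries, a replicate block, a term for WT replicate numbers and offsets for gene span.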

Additional observations from a re-analysis of the deposited data

How the results depend on the processing

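Between genotypes on average, 1 member was called. The count was 0 with upper quartile scaling and without the WT pair, 2 with the WT series term, with span offsets and with DESeq2 (22.0, 14.1 and 19.7% of all genes), and 0 to 2 over fits without 1 library. A fit of only the compared groups gives no separate value there, since that comparison uses all groups. For WT at day 7 against day 0 the count of 0 became 1 with upper quartile scaling, 2 with the WT series term and 2 with DESeq2. For the mutant at day 7 it became 8 with only the compared groups and 1 with the WT series term, fits that called 38.8 and 25.1% of all genes. The 9 members called between the WT replicate numbers became 18 with span offsets, at 31.7% of all genes. The other 11 comparisons gave 0 members under every alternative run. The causes of these changes were not tested.

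With the replicate number as a replicate block, the count on average was 0, and Srsf4 had an adjusted p of 0.0548. The labels do not say that a number marks a shared culture. Deviations from the group means were correlated over all genes between libraries numbered 1. In WT r was above 0.1 in 6 of 6 pairs of days (0.26 to 0.764), and in the mutant in 2 of 6 (-0.59 to 0.263). Between genotypes it was above 0.1 in 10 of 16 pairs (-0.532 to 0.672).

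Over all genes DESeq2 called more than edgeR did: 694, 766, 134 and 313 against 43, 64, 11 and 15 between genotypes at days 0, 1, 2 and 7, and 3025 against 1973 on average. In the tri-snRNP list DESeq2 called 5 genes on average against 2. In the mutant at day 7 it called 5 against 1, beside 3314 against 2176 of all genes. With 2 libraries in most groups, differences of single days under about 1.5-fold were rarely resolved, the median interval reaching 0.44 to either side on the log2 scale.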
